A study of Mus musculus with 8 samples.

Results

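The 10 genes described here, *Pou5f1*, *Nanog*, *Sox2*, *Zfp42*, *Tbx3*, *Sall4*, *Prdm14*, *Tfcp2l1*, *Gbx2* and *Tcl1*, were chosen by name as factors of the naive pluripotency network, out of 50902 genes with a value in the RNA-seq data. All 10 had a symbol in the data and a level high enough to be tested. The libraries came from E14, a mouse embryonic stem cell (ESC) line that grows on gelatin without feeder cells, cultured in N2B27 medium with LIF and 2i, the pair of kinase inhibitors that holds ESCs in the ground state. Both groups carried a PiggyBac transgene for BAZ2A, a chromatin protein that binds RNA through its TAM domain. The transgene was tagged with Flag and HA and made resistant to the siRNA. In ESC + F/H-BAZ2Ar WT the transgene was intact (WT line, 4 libraries). In ESC + F/H-BAZ2Ar ΔTAM it lacked the TAM domain (ΔTAM line, 4 libraries). All cells of both groups were transfected with siRNA against *Baz2a* and collected 3 days later, so that the endogenous protein was targeted in each. The lines were isolated from single cells, chosen by western blot for their level of the transgene, so that a difference between the transgenes cannot be told apart from a difference between the clones. The comparison asked how the mRNAs of the naive factors differ when the BAZ2A that remains cannot bind RNA through TAM.

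Naive pluripotency is the state of the cells of the early epiblast, and ESCs in LIF and 2i keep it in culture. OCT4 (the product of *Pou5f1*), SOX2 and NANOG form its core. OCT4 and SOX2 bind side by side at enhancers of many ESC genes, their own genes included, where OCT4 reads an octamer and SOX2 a short element beside it. Around this core, LIF acts through JAK and STAT3 on *Tfcp2l1* and *Gbx2* and through PI3K and AKT on *Tbx3*, while PRDM14 and SALL4 act mostly with repressive partners. *Zfp42* (REX1) is a widely used reporter of the naive state. *Tcl1* is the 1 member whose product is not a transcription factor: it is a coactivator of the kinase AKT.

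The libraries held 7260367 to 7691835 reads on genes in the WT line and 6565629 to 8669093 in the ΔTAM line. Levels were deposited as RPKM, which divides the reads of a gene by its length in kilobases and by the depth of the library, and the length used was that of the whole gene span with its introns. *Baz2a* itself, counted with its transgene, had 10.5 ± 0.529 RPKM (SD, n = 4) in the WT line and 18.3 ± 0.824 RPKM (SD, n = 4) in the ΔTAM line, a log2 fold change of 0.79 (adjusted p = 3.4e-05 from limma), and the part of this difference in the results below was not tested. Fibroblast markers (*Col1a1*, *Col1a2*, *Col3a1*, *Thy1* and *Twist2*) had at most 10 reads in any library, and *Col3a1* and *Twist2* were at 0. Of the markers of primed cells, which follow the naive state, *Fgf5* was at 0 in all libraries, and the summed level of the 5 genes was 0.304 to 0.344 RPKM in the WT line and 0.435 to 0.487 RPKM in the ΔTAM line. *Dnmt3b*, the 1 gene of them tested, held most of this sum, with 0.239 RPKM in the WT line and 0.393 RPKM in the ΔTAM line, while *Otx2* had 0.0101 and 0.0020 RPKM, *Pou3f1* 0.0539 and 0.0473 RPKM and *Lef1* 0.0132 and 0.0198 RPKM. Primitive endoderm markers summed to 0.018 to 0.044 RPKM and 0.035 to 0.060 RPKM, and none of the 5 passed the filter on low values. The ESC markers (*Lin28a*, *Utf1*, *Dppa5a*, *Esrrb* and *Klf4*) summed to 295 to 305 RPKM in the WT line and 235 to 256 RPKM in the ΔTAM line, 4 of the 5 being lower. *Dppa5a* alone held 283 RPKM and 233 RPKM of these sums. The trophectoderm markers summed to 0.407 to 0.458 RPKM and 0.367 to 0.567 RPKM, with *Eomes* lower of 2 tested of 5, a call that was lost with the replicate block (adjusted p = 0.0942 from limma) and whose libraries overlapped between the lines. Mesoderm markers summed to 0.740 to 0.813 RPKM and 0.587 to 0.768 RPKM, and neurectoderm markers to 0.248 to 0.309 RPKM and 0.250 to 0.306 RPKM, with 1 of 4 tested and not called in each. The neurectoderm gene tested, *Tubb3*, passed with the replicate block (log2 fold change 0.18, adjusted p = 0.0359 from limma). Voom on the recovered reads, which tests lower genes, gave *Cdx2* higher (log2 fold change 0.39, adjusted p = 0.0327), *Lef1* higher (0.59, adjusted p = 1.5e-04) and *Sox1* lower (-0.95, adjusted p = 0.0030). The part of these markers in the results below was not tested.

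Of the 10 genes, 3 were higher in the ΔTAM line (*Gbx2*, *Sall4* and *Prdm14*), 3 were lower (*Tcl1*, *Sox2* and *Tbx3*) and 4 did not pass the test (*Pou5f1*, *Nanog*, *Zfp42* and *Tfcp2l1*), at an adjusted p of 0.05 (limma, adjusted by Benjamini-Hochberg across 9002 genes). By the same rule 35.9% of all genes tested were called, 19.9% higher and 16% lower, and among the 2151 genes whose mean reached 1 RPKM, 43.6% were called. The libraries of the lines did not overlap for 6 of the 10 genes, against 37.2% of all genes tested. By the thresholds of the study, a log2 fold change of 0.58 or more in either direction with an unadjusted p under 0.05, *Gbx2* was higher and *Tcl1* was lower, 2 of the 10 genes, against 2.34% higher, 1.47% lower and 3.81% in either direction among the genes tested. Here these thresholds were applied to the limma fit. The paper, with the same thresholds on its own values, counted more genes. The median log2 fold change was -0.012 over the 10 genes and 0.011 over all genes, and the median of its absolute value was 0.23 and 0.13. In bulk RNA of this kind, fewer cells that express a gene and less RNA of it per cell cannot be told apart.

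**Figure D1:**
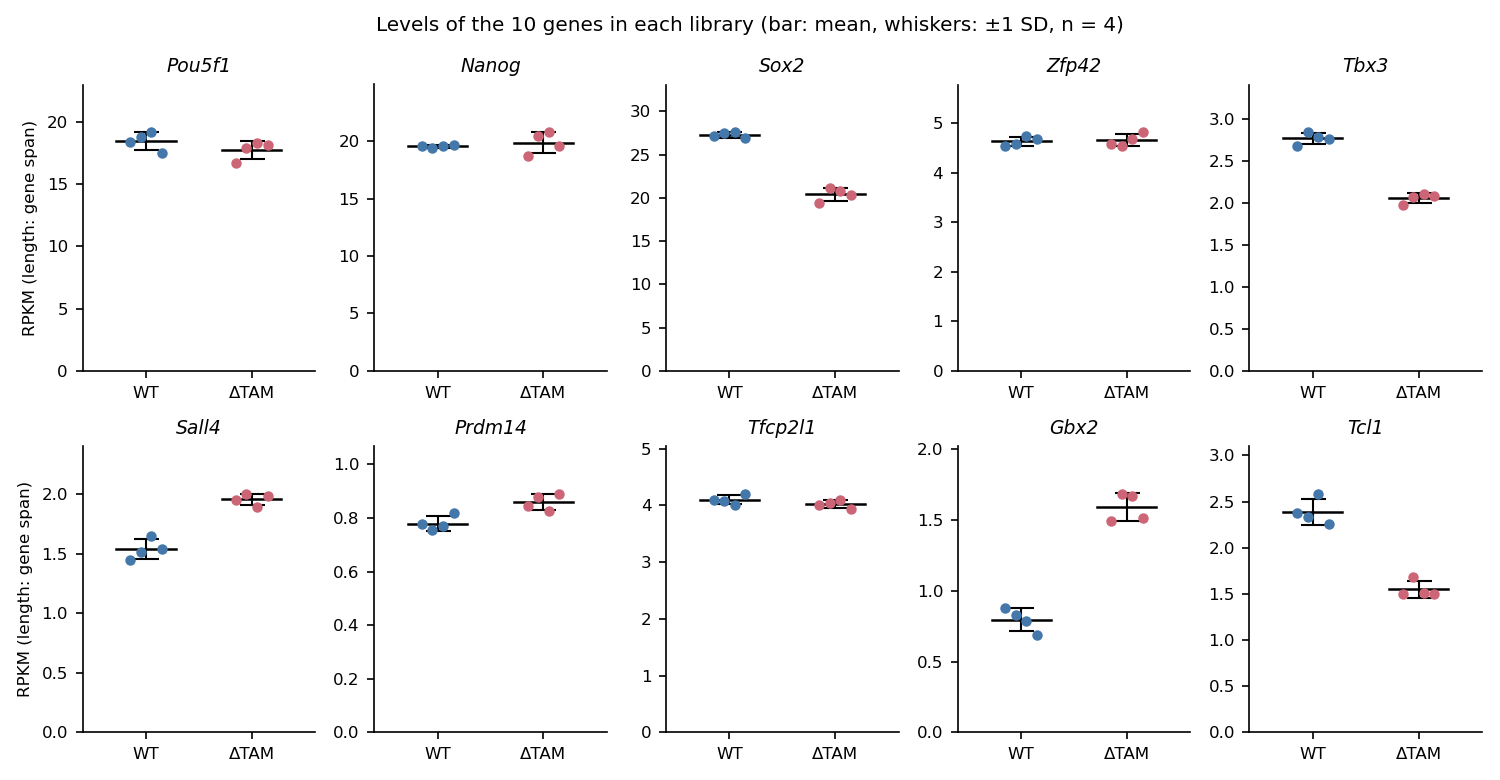
Level of each of the 10 genes in every library, in RPKM (by gene span) on a linear axis from 0, with the mean as a bar and 1 SD as whiskers (n = 4 per line). The WT and ΔTAM libraries stand apart for *Sox2*, *Tbx3*, *Sall4*, *Prdm14*, *Gbx2* and *Tcl1*, and overlap for *Pou5f1*, *Nanog*, *Zfp42* and *Tfcp2l1*.

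The promoters of the core genes *Nanog* and *Sox2*, of *Zfp42* and of *Gbx2* are shown because the first 3 hold letters like those OCT4 reads and because these 4 genes span the outcomes, not called, lower and higher. They are the 250 bases before a RefSeq transcription start (GRCm38.p6), 5′ to 3′ on the gene's strand. Capitals mark the octamer ATGCAAAT, its shortened form ATGCAAA, or the SOX element ACAATG, on either strand. *Nanog* is at chr6:122707239-122707488 on the plus strand, *Sox2* at chr3:34649745-34649994 on the plus strand, *Zfp42* at chr8:43307010-43307259 on the minus strand and *Gbx2* at chr1:89931177-89931426 on the minus strand.
Nanog: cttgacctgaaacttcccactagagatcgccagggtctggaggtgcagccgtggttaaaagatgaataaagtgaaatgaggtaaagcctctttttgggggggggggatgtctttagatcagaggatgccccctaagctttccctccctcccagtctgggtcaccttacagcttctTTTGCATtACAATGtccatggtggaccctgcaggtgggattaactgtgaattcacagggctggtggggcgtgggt
Sox2: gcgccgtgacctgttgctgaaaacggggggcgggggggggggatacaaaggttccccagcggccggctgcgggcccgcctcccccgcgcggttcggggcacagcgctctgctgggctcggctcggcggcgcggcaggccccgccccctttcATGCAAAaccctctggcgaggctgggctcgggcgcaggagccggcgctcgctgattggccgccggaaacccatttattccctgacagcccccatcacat
Zfp42: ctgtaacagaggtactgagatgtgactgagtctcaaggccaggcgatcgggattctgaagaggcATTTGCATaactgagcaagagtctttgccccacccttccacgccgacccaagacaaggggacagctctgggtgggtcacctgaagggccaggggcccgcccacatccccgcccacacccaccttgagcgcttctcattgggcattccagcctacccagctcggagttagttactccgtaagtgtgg
Gbx2: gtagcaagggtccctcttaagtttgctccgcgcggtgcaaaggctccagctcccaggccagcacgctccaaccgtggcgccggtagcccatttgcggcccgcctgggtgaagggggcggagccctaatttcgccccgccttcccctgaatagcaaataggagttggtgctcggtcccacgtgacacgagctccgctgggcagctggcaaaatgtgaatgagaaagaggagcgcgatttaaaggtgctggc

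In *Nanog* the shortened octamer stands on the opposite strand and begins 75 bases before the start, followed after 1 base by ACAATG, which begins 67 bases before it. *Sox2* holds ATGCAAA 99 bases before a start that lies 410 bases upstream of the gene start in the deposited data. *Zfp42* holds the full octamer on the opposite strand, beginning 186 bases before the start. *Gbx2* holds none of these letters in this window. RefSeq promoters were at hand for 7 of the 10 genes, 9 promoters in all, and those of *Prdm14*, *Sall4* and *Tbx3* were not. The second start of *Nanog* shares the letters of the first, the shortened octamer 151 bases and ACAATG 143 bases before it. The second start of *Pou5f1* held ACAATG. The first start of *Pou5f1* and the promoters of *Tfcp2l1* and *Tcl1* held none of these letters. Over the same 250 bases, 1.601% of the 32851 promoters of the table held ATGCAAAT and 10.69% held ACAATG. The shortened octamer, which every full octamer also contains and which was added once the sequences had been read, was in 4.125%. The STAT element TTCNNNGAA was in 7.02% of all promoters and in none of the 9. The genes with an octamer or its shortened form had different outcomes: *Sox2* was lower, and *Nanog* and *Zfp42* did not pass the test.

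*Pou5f1*, on chromosome 17 of mm10 from 35506018 to 35510772, had 18.4, 18.8, 19.2 and 17.5 RPKM in WT replicates 1 to 4 and 16.7, 17.9, 18.3 and 18.1 RPKM in ΔTAM replicates 1 to 4. The ranges of the lines overlapped, with the lowest value in ΔTAM replicate 1 and the highest in WT replicate 3. The log2 fold change of *Pou5f1* on the scale of log2(RPKM + 0.1), used for every fold change below, was -0.057 (standard error 0.040, 95% interval -0.15 to 0.036, adjusted p = 0.304 from limma), and it lay between -0.083 and -0.028 with 1 library left out. With quantile normalization of the libraries it was -0.12 and passed the test (adjusted p = 0.0190). *Pou5f1* had 4291 to 4599 reads in the WT libraries and 3580 to 5000 in the ΔTAM libraries.

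*Nanog*, a homeobox gene on chromosome 6 from 122707489 to 122714633, had 19.5, 19.4, 19.6 and 19.7 RPKM in the WT libraries and 18.7, 20.5, 20.8 and 19.6 RPKM in the ΔTAM libraries. The WT values lay within the range of the ΔTAM values. Among the WT libraries *Nanog* varied by 0.54% (coefficient of variation), where sampling of its reads alone gives 1.19%, and among the ΔTAM libraries by 4.75%. Its log2 fold change was 0.023 (standard error 0.034, 95% interval -0.057 to 0.10, adjusted p = 0.645 from limma), and it lay between 0.0012 and 0.052 with 1 library left out.

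*Sox2*, a gene of 1 exon on chromosome 3 from 34650405 to 34652461, had 27.2, 27.5, 27.6 and 26.9 RPKM in the WT libraries and 19.4, 21.1, 20.8 and 20.3 RPKM in the ΔTAM libraries. Every ΔTAM library was below every WT library. The mean fell from 27.3 ± 0.343 RPKM (SD, n = 4) to 20.4 ± 0.735 RPKM (SD, n = 4), a change of -25.2%, with a log2 fold change of -0.42 (standard error 0.029, 95% interval -0.49 to -0.35, adjusted p = 6.8e-05 from limma). With any 1 library left out the *Sox2* fold change stayed between -0.43 and -0.39, and voom on the recovered reads, 2762 to 2917 in the WT line and 1804 to 2428 in the ΔTAM line, gave -0.42. *Sox2ot*, a non-coding transcript whose span includes *Sox2* on the same strand, had at most 20 reads in a library.

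The balance of the core genes was compared within each library, which removes the scaling of the libraries. These RPKM divide by gene spans with introns, so the ratios can be compared between the lines but do not rank the genes. With reads divided by exon length instead, *Sox2* was below *Pou5f1* in both lines. The values were 27.3 and 39.0 in the WT line and 20.4 and 37.5 in the ΔTAM line. The *Sox2* to *Pou5f1* ratio of RPKM was 1.48, 1.47, 1.44 and 1.54 in the WT libraries and 1.17, 1.18, 1.14 and 1.12 in the ΔTAM libraries. The ratio was 1.48 ± 0.0406 (SD, n = 4) against 1.15 ± 0.0255 (SD, n = 4), and all WT libraries were above all ΔTAM libraries. On the log2 scale the difference was -0.36, with a two-sided exact permutation p of 0.0286, the smallest that 4 against 4 libraries allow, and 0.0571 after Benjamini-Hochberg adjustment over the 2 ratios compared. As pairs of the same replicate number, the 4 differences gave an exact sign-flip p of 0.125, the smallest that 4 pairs allow. The *Nanog* to *Pou5f1* ratio was 1.06, 1.03, 1.02 and 1.12 in the WT libraries and 1.12, 1.14, 1.14 and 1.08 in the ΔTAM libraries. These ranges overlapped, with a difference of 0.080 (two-sided exact permutation p = 0.0857, also 0.0857 after the adjustment).

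**Figure D2:**
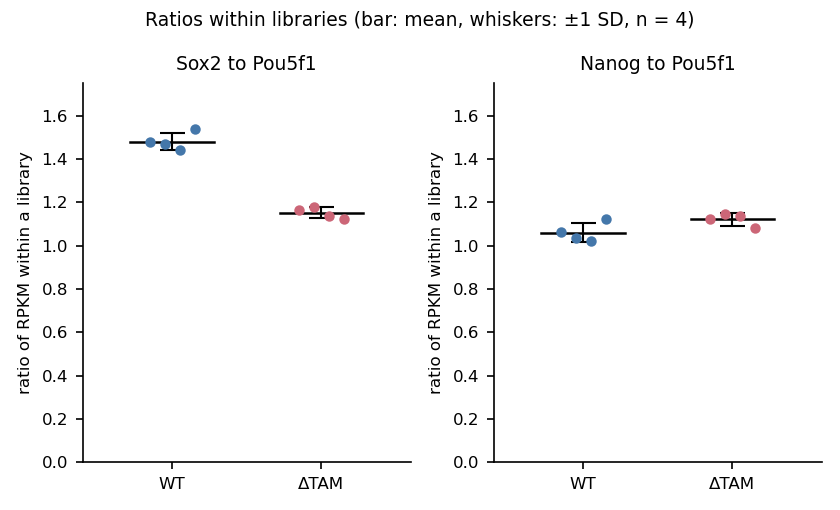
Ratio of *Sox2* to *Pou5f1* (left) and of *Nanog* to *Pou5f1* (right) within each library, on a linear axis from 0, with the mean as a bar and 1 SD as whiskers (n = 4 per line). The RPKM are by gene span, so the ratios compare the lines and do not rank the genes. The *Sox2* to *Pou5f1* ratio lies between 1.44 and 1.54 in the WT libraries and between 1.12 and 1.18 in the ΔTAM libraries, while the *Nanog* to *Pou5f1* ratio overlaps between the lines.

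Of the factors under LIF, *Tfcp2l1*, a CP2-family gene and target of STAT3 on chromosome 1 from 118627945 to 118685168, had 4.10, 4.08, 4.02 and 4.21 RPKM in the WT libraries and 4.00, 4.04, 4.10 and 3.93 RPKM in the ΔTAM libraries. The values overlapped. Its log2 fold change was -0.028 (standard error 0.024, 95% interval -0.084 to 0.027, adjusted p = 0.393 from limma), and it lay between -0.038 and -0.016 with 1 library left out. It was the member with the most reads, 10135 to 13067 per library, and the one with the smallest standard error.

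*Gbx2*, a homeobox gene and another STAT3 target, on chromosome 1 from 89927956 to 89931179, had 0.880, 0.831, 0.790 and 0.685 RPKM in the WT libraries and 1.50, 1.69, 1.67 and 1.51 RPKM in the ΔTAM libraries. The lowest ΔTAM value was well above the highest WT value. The mean changed by 99.7%, with a log2 fold change of 0.92 (standard error 0.074, 95% interval 0.75 to 1.09, adjusted p = 1.1e-04 from limma), the largest change among the 10 genes. *Gbx2* rested on the fewest reads, 114 to 141 in the WT libraries and 218 to 287 in the ΔTAM libraries. The added 0.1 RPKM understates such a low gene: voom on the recovered reads gave 1.0, and a pseudocount of 1 RPKM gave 0.53. *D130058E05Rik*, a non-coding gene on the opposite strand, overlaps the start of *Gbx2*. It had 0.267 RPKM in the WT line and 0.201 RPKM in the ΔTAM line (log2 fold change -0.27, adjusted p = 0.155 from limma), and reads of the pair cannot be told apart if strand was not used in the counting.

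*Tbx3*, a T-box gene on chromosome 5 from 119670669 to 119684724, had 2.68, 2.84, 2.79 and 2.76 RPKM in the WT libraries and 1.97, 2.07, 2.11 and 2.08 RPKM in the ΔTAM libraries. No ΔTAM library reached the WT range. The mean changed by -25.6%, with a log2 fold change of -0.41 (standard error 0.029, 95% interval -0.48 to -0.34, adjusted p = 8.0e-05 from limma), and with any 1 library left out it stayed between -0.42 and -0.39. Its interval covered nearly the same range as that of *Sox2*.

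*Tcl1*, on chromosome 12 from 105216750 to 105222793, had 2.38, 2.34, 2.59 and 2.26 RPKM in the WT libraries and 1.50, 1.68, 1.51 and 1.50 RPKM in the ΔTAM libraries. All ΔTAM libraries were below all WT libraries, with replicate 2 above the other 3 of its line. The mean changed by -35.1%, with a log2 fold change of -0.59 (standard error 0.052, 95% interval -0.71 to -0.47, adjusted p = 1.6e-04 from limma), the largest decrease among the 10 genes. This value lies close to the fold threshold of the study: it was -0.56 without WT replicate 3, -0.579 without ΔTAM replicate 1 and -0.578 without ΔTAM replicate 4, each short of 0.58 in size. The neighbouring relatives *Tcl1b1*, *Tcl1b3*, *Tcl1b4* and *Tcl1b5* were at 0 in all libraries, and *Tcl1b2* had at most 1 read.

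*Sall4*, a zinc finger gene whose product recruits the NuRD deacetylase complex, on chromosome 2 from 168748332 to 168767943, had 1.45, 1.52, 1.65 and 1.54 RPKM in the WT libraries and 1.95, 2.00, 1.90 and 1.98 RPKM in the ΔTAM libraries. All ΔTAM libraries were above all WT libraries. The mean changed by 27.3%, with a log2 fold change of 0.33 (standard error 0.039, 95% interval 0.24 to 0.42, adjusted p = 6.5e-04 from limma).

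*Prdm14*, which encodes a PR-domain repressor of FGF signalling and of the de novo DNA methyltransferases, lies on chromosome 1 from 13113457 to 13127163. Its values were 0.776, 0.754, 0.768 and 0.817 RPKM in the WT libraries and 0.844, 0.879, 0.825 and 0.891 RPKM in the ΔTAM libraries. The lines did not overlap, but the highest WT value and the lowest ΔTAM value were close. The mean changed by 10.4%, with a log2 fold change of 0.13 (standard error 0.034, 95% interval 0.049 to 0.21, adjusted p = 0.0219 from limma). With a pseudocount of 1 RPKM it was 0.064. This was the weakest call of the 6: it was lost with quantile normalization (adjusted p = 0.0704) and when WT replicate 1, 2 or 3 or ΔTAM replicate 2 or 4 was left out, where the adjusted p rose to at most 0.0595.

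*Zfp42*, on chromosome 8 from 43295063 to 43306980, had 4.55, 4.58, 4.75 and 4.69 RPKM in the WT libraries and 4.59, 4.54, 4.68 and 4.82 RPKM in the ΔTAM libraries. The values of the lines were interleaved. Its log2 fold change was 0.0045 (standard error 0.027, 95% interval -0.058 to 0.067, adjusted p = 0.915 from limma), the smallest in size among the 10 genes, and its sign changed with the scaling of the libraries. At 2370 to 3338 reads per library, the interval leaves out a change as large as that of *Sox2* or *Tbx3*.

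**Figure D3:**
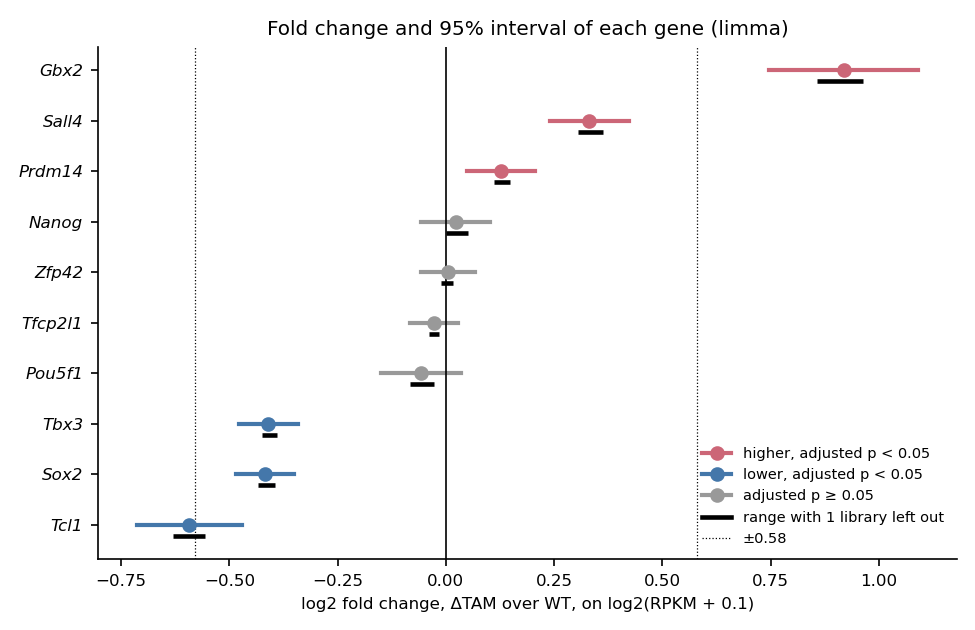
Log2 fold change of the ΔTAM line over the WT line for each of the 10 genes (points) with its 95% interval (coloured lines), the range over fits with 1 library left out (black bars) and the fold threshold of the study (dotted lines at 0.58 and -0.58). *Gbx2* and *Tcl1* lie past the dotted lines, and the intervals of *Nanog*, *Zfp42*, *Tfcp2l1* and *Pou5f1* include 0.

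Among the ΔTAM libraries, replicate 1 was the lowest for *Pou5f1*, *Nanog*, *Sox2*, *Tbx3* and *Gbx2*. The cause was not tested, and leaving this library out changed the call of none of these genes.

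To compare the levels of the 10 genes with each other, the reads were divided by the length of the exons, since introns take up unequal parts of the gene spans. On this scale, RPKM by exon length, the order in the WT line was *Nanog* (62.3), *Pou5f1* (39.0), *Zfp42* (29.4), *Sox2* (27.3), *Tfcp2l1* (24.9), *Tcl1* (7.82), *Tbx3* (5.88), *Sall4* (5.45), *Prdm14* (4.16) and *Gbx2* (1.18). The neighbours *Tbx3* and *Sall4* overlapped between libraries, and no other neighbours did. In the ΔTAM line the order was *Nanog* (63.3), *Pou5f1* (37.5), *Zfp42* (29.5), *Tfcp2l1* (24.4), *Sox2* (20.4), *Sall4* (6.94), *Tcl1* (5.08), *Prdm14* (4.60), *Tbx3* (4.37) and *Gbx2* (2.36), where the neighbours *Prdm14* and *Tbx3* overlapped. *Sox2* thus moved from above to below *Tfcp2l1*, *Sall4* moved above *Tcl1* and *Tbx3*, and *Nanog*, *Pou5f1*, *Zfp42* and *Gbx2* kept their places.

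**Figure D4:**
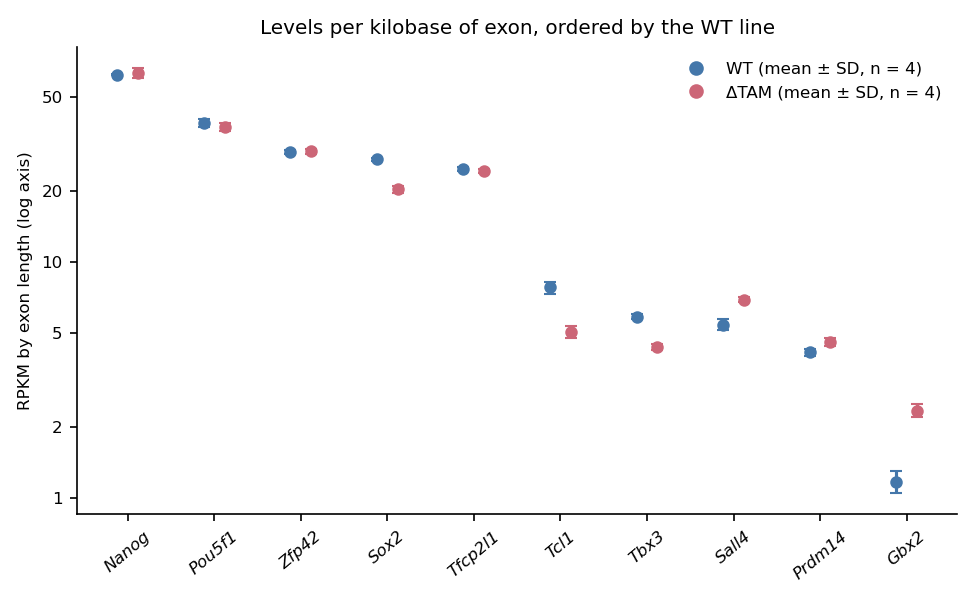
Level of the 10 genes in RPKM by exon length, on a log axis, as mean and SD of 4 libraries per line, ordered by the WT line. The 5 genes to the left lie above 20 in both lines, the others below 10.

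Of 13 other genes of the naive network, all tested, 7 were lower and 3 higher. Over all genes tested, limma called 35.9% and voom 43.8%, the shares to set beside this list and those below. *Dppa3* (Stella, an epiblast and germ-line gene) rose from 0.318 ± 0.0340 to 1.35 ± 0.114 RPKM (SD, n = 4; log2 fold change 1.80), *Nr0b1* (DAX1, a nuclear receptor that binds OCT4) rose from 2.48 ± 0.202 to 4.46 ± 0.231 RPKM (SD, n = 4; 0.83), and *Tdgf1* (Cripto, a coreceptor of Nodal) fell from 14.9 ± 0.450 to 7.13 ± 0.247 RPKM (SD, n = 4; -1.05). The median over the list was -0.12. In this list and those below, fold changes of genes near or under 1 RPKM depend on the pseudocount: with 1 RPKM in its place they kept their calls but became 0.83 for *Dppa3*, 0.56 for *Lefty1*, 0.15 for *Akt2*, -0.069 for *Akt1*, 0.17 for *Dnmt3b*, -0.082 for *Tet2*, 0.050 for *Cbfa2t2*, 0.18 for *Hdac1* and -0.29 for *Sox12*.

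Of 5 genes with known OCT4-SOX2 enhancers, none of them among the 10, 3 were lower and 2 higher. *Utf1*, a chromatin-associated ESC factor, fell by 1.0 on the log2 scale and *Fgf4*, the growth factor that drives exit from the naive state, fell by 0.48, whereas *Lefty1*, an inhibitor of Nodal, rose by 0.96. The call of *Fbxo15* (log2 fold change 0.083) was lost with the replicate block (adjusted p = 0.0769 from limma).

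Of the LIF and AKT signalling genes, 9 of 13 were tested, 3 higher and 2 lower. Voom, which filters on reads and so keeps genes of long span, tested 12 and called 6 higher and 4 lower, among them *Jak2* (log2 fold change 0.69) and *Pik3r1* (0.45), which the RPKM filter left out. *Socs3*, a feedback inhibitor and target of STAT3, fell by 0.32 on the log2 scale. *Akt2* rose by 0.44, while *Akt1* fell by 0.20. The calls of *Stat3* (log2 fold change 0.093) and of the coreceptor *Il6st* (0.092) were lost with the replicate block (adjusted p = 0.0753 and 0.0960 from limma). *Tfcp2l1*, *Gbx2* and *Socs3*, all targets of STAT3, thus moved differently, with *Gbx2* higher, *Socs3* lower and *Tfcp2l1* not called.

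Around *Prdm14*, 5 of 8 partners and targets were tested, 2 higher and 1 lower, and voom tested 7, with 2 higher and 3 lower. Its partner *Cbfa2t2* rose by 0.18 on the log2 scale, and *Dnmt3b*, a de novo DNA methyltransferase that PRDM14 represses, rose by 0.54, from 0.239 ± 0.0103 to 0.393 ± 0.0178 RPKM (SD, n = 4). Of the related genes under the RPKM filter, voom called *Dnmt3l*, at 0.110 and 0.0645 RPKM, lower (log2 fold change -0.76, adjusted p = 1.6e-04), and gave -0.053 for *Dnmt3a* (adjusted p = 0.473). *Tet2* fell by 0.20 (adjusted p = 0.0390 from limma), a call that was lost when any of 6 libraries was left out: all WT libraries in turn, and ΔTAM replicates 2 and 3 (adjusted p of at most 0.0956). It was also lost without the filter on low values (adjusted p = 0.0832).

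Of 13 NuRD genes, whose complex *Sall4* recruits, 12 were tested, 6 higher and 3 lower, and voom tested all 13, with 7 higher and 3 lower, the addition being *Mbd2* (log2 fold change 0.46). *Hdac1* rose by 0.30 and *Rbbp4* by 0.25 on the log2 scale, and *Rbbp7* fell by 0.22. The calls of *Mta2* (0.13) and *Hdac2* (-0.10) were lost with the replicate block (adjusted p = 0.0556 and 0.103 from limma). Of 9 regulators of the exit from the naive state, 7 were tested, of which *Zfp706* was higher by 0.15 and *Fnip1* lower by 0.25 on the log2 scale. Voom tested all 9, with 3 higher and 2 lower, and its largest rise was in *Tcf7l1*, a repressor of naive genes that the RPKM filter left out (log2 fold change 0.62, adjusted p = 3.5e-09), while *Fnip2* was lower (-0.35). *Fnip1*, at 0.132 RPKM in the WT line, had -0.47 by voom and -0.048 with a pseudocount of 1 RPKM. The *Zfp706* call was lost without any of WT replicates 1 to 3 and ΔTAM replicates 2 to 4 and without the filter on low values (adjusted p of at most 0.0684 from limma).

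**Figure D5:**
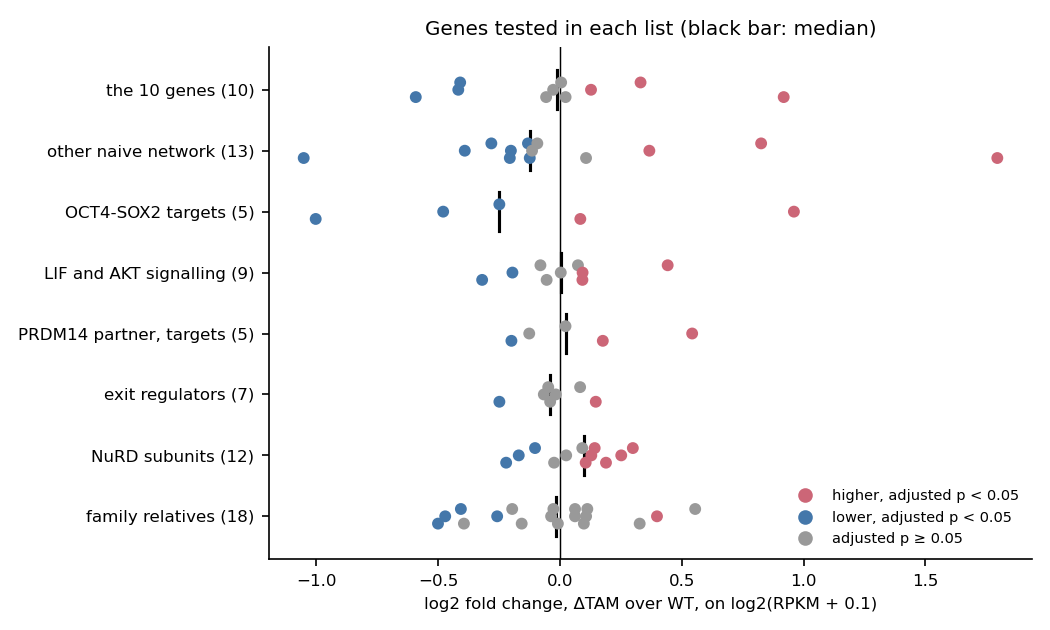
Log2 fold change of the ΔTAM line over the WT line for each tested gene of the 10 and of the 7 lists around them, with the number tested in parentheses, the adjusted p call in colour and the median as a black bar. The 10 genes spread from -0.59 to 0.92 with a median of -0.012.

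Relatives of the 10 genes by protein family were mostly low, with 18 of 44 tested, 4 lower and 1 higher. With the replicate block 5 were lower and 2 higher, with *Mtcp1* (log2 fold change -0.39, adjusted p = 0.0222), *Sox4* (-0.20, adjusted p = 0.0483) and *Sox15* (0.33, adjusted p = 0.0430 from limma) gained. Voom tested 28, with 10 lower and 6 higher. Of the SOX family, *Sox12* fell by 0.47 and *Sox11* by 0.50 on the log2 scale. *Sox11* is low, at 0.157 RPKM in the WT line and 0.0805 RPKM in the ΔTAM line, and the pseudocount sets its value: voom on the recovered reads gave -0.93, against -0.51 for *Sox12*, and a pseudocount of 1 RPKM gave -0.098. *Grhl3*, of the same wider family as *Tfcp2l1*, fell by 0.41, from 0.236 to 0.154 RPKM, with -0.63 by voom and -0.0996 with a pseudocount of 1 RPKM. The remaining calls, named here once their values were known, were *Yy1*, a relative of *Zfp42*, which rose by 0.40, and the T-box gene *Eomes*, which fell by 0.26 (-0.46 by voom) and was not called with the replicate block. *Sall1*, the relative of *Sall4* with 2.24 RPKM in the WT line, had a log2 fold change of -0.0090 (adjusted p = 0.886 from limma).

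Within 100 kb of the 10 genes lay 58 other genes, of which 13 were tested, 1 was higher and 0 were lower (limma). The gene that was higher was *Dppa3*, 77217 bases from *Nanog*. The nearest tested genes beside *Nanog*, *Slc2a3* with a log2 fold change of -0.059 and *Gm10224* with -0.18, were not called, nor were *Tcf19* (0.014) and *H2-Q10* (-0.21) beside *Pou5f1*, *Atp9a* (0.039) beside *Sall4* or *Gm2221* (-0.39) beside *Zfp42*. *Slc2a3* passed the test with median-ratio scaling, quantile normalization and voom on the recovered reads, at -0.074, -0.092 and -0.059 (adjusted p = 0.0478, 0.0255 and 0.0474 from limma). Beside *Sox2*, *Tbx3*, *Prdm14*, *Tfcp2l1* and *Tcl1*, no gene in this window passed the filter. Voom, which filters on reads, also tested genes with long spans. It called *Clasp1* beside *Tfcp2l1* higher (log2 fold change 0.13, adjusted p = 0.0194), and *Tbx3os1*, antisense to the start of *Tbx3* with at most 22 reads in a library, lower (-0.85, adjusted p = 0.0492), and *H2-Q7* beside *Pou5f1*, with at most 14 reads, lower (-0.76, adjusted p = 0.0492). These 3 genes, and the other genes given by voom or the block alone, are named here once their values were known.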

How the data were processed

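RNA was sequenced from mouse E14 ESCs in 4 libraries of ESC + F/H-BAZ2Ar WT and 4 of ESC + F/H-BAZ2Ar ΔTAM, grouped by their labels. Per the labels and methods, polyA RNA was prepared with a stranded kit, and reads were trimmed with Trimmomatic, for which the sources give different versions, and mapped with STAR to mm10. The authors deposited RPKM for each library from exon coverage. The annotation release, whether strand was used and how multi-mapped reads were handled are not given in the sources used here. Nothing states that the replicates were separate cultures, so p-values measure the spread between these libraries, which may be technical.

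Multiplied by the gene span, the RPKM values came in whole steps of 1 read for 99.5% to 99.6% of genes (tolerance 0.02 of a read), which gave the reads per gene. Of 51288 entries, 386 repeats were set aside. The coordinates of 90.6% of the genes are those of GENCODE vM21, which supplied exon lengths and strands.

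limma 3.58.1 in R 4.3.3 was fitted with a mean-variance trend to log2(RPKM + 0.1) of the 9002 genes whose mean reached 0.1 RPKM, without covariates, with Benjamini-Hochberg adjustment over all of them. Ratios were compared by exact permutation in Python 3.11.15. Replicates of the same number deviated together (correlations of 0.332, 0.144, 0.196 and 0.237 over 2151 genes), so the numbers, which both lines share in the labels, were taken to pair the libraries. The pairing comes from the data, since the labels do not say what a number marks. The main limma fit and the exact permutation over libraries did not use this pairing. Alternatives were pseudocounts of 0.01 and 1 RPKM, no filter or one at a mean of 1 RPKM, median-ratio and quantile scaling, no trend, a robust fit, a replicate block, leaving out each library, and voom on the recovered reads of 12659 genes that averaged 10 or more, which called 5540 genes (43.8%).

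Named are the 10 genes, the 3 largest calls of each list around them, relatives averaging 1 RPKM or more, and the overlapping and nearest tested genes. The members and lists were chosen with earlier results of these data known. Promoters are from RefSeq, matched by symbol.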

Additional observations from a re-analysis of the deposited data

Results flagged for a closer look

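In 3 cases a library stood apart from the other 3 of its line. *Tcl1* was highest in ΔTAM replicate 2, at 1.68 RPKM, with a gap to the next library of 0.943 of the range of its line. Without that library the log2 fold change of *Tcl1* was -0.63 (adjusted p = 3.2e-04 from limma). *Rbbp7*, a NuRD subunit, was highest in WT replicate 1, at 2.84 RPKM (0.852 of the range). *Gm2221*, a pseudogene near *Zfp42* with at most 7 reads in a library, was highest in WT replicate 3, at 0.295 RPKM (0.936 of the range). These are 3 of 76 groups of 4 libraries checked over 38 genes, 1 of them among the 20 groups of the 10 genes, and chance alone picks out about 1 group in 20.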

How the results depend on the processing

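Each of the 10 genes called at an adjusted p of 0.05 kept its direction in every fit in which it was tested, and *Sox2*, *Tbx3*, *Sall4*, *Gbx2* and *Tcl1* also kept their calls. *Prdm14* lost its call in 6 fits and was not tested with a filter of 1 RPKM, and *Pou5f1* gained one with quantile normalization. The genes past the fold threshold of the study went from 2 to 0 with a pseudocount of 1 RPKM, and with 1 library left out ranged from 1 to 2. Around the 10 genes, 39 list genes were called, 18 with a filter of 1 RPKM (fewer genes tested), 61 with voom on reads (more genes tested), and 31 to 34 with 1 library left out. The replicate block changed the call of none of the 10 genes. For those called, the block gave larger adjusted p-values than the main fit, from 0.0021 (*Tbx3*) to 0.0358 (*Prdm14*; limma). In the lists it called 36 genes, ending and adding those named in the report, and it gave the *Sox2* to *Pou5f1* difference of -0.36 an exact sign-flip p of 0.125. Beyond these, the block changed no call of a gene in the lists.

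The sign reversed for *Zfp42* (0.0045, and from -0.012 to 0.017 with 1 library left out), to -0.010 with median-ratio scaling, -0.022 with quantile normalization, and -0.0046, -0.0019 and -0.012 without WT replicate 1, WT replicate 2 or ΔTAM replicate 4. It reversed for *Sall1* without WT replicate 3 (0.015) or ΔTAM replicate 3 (0.0068; range -0.043 to 0.015), for *Tcf19* with quantile normalization (-0.011) and without WT replicate 3 (-0.052), ΔTAM replicate 1 (-0.024) or ΔTAM replicate 2 (-0.020; range -0.052 to 0.078), and for *Gm10224* without WT replicate 2 (0.031; range -0.42 to 0.031). None of these passed the test in any fit, and the cause was not tested. *Gbx2*, with at most 287 reads in a library, is the member whose depth limits its precision most. Each line is 1 clone, which no alternative addresses.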
